A study of Mus musculus with 9 samples.

Results

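The subject of this report is the class of mouse blood columns that the submitters named T-cells-CD4. It holds 450 of the 4310 barcode columns of the deposited blood table, chosen by that name alone, with no expression value used. The libraries were made with Seq-Well, in which cells settle into tiny wells together with beads that carry a barcode, and transcripts are read from the polyA tail. Blood was drawn from female 129SvE mice, 5 with arthritis in a mouse model of rheumatoid arthritis (mice 1, 3, 4, 5 and 6, with disease stage labels above 0) and 4 healthy (mice 1 to 4, stage 0). The labels give the tissue both as PBMC and as blood, and they do not give the agent that induced arthritis or the age of the mice. The full deposited name is T-cells-CD4-, and no label says what it was based on or what its final hyphen means. The class is called the T class below, because its columns held more Cd8 than Cd4 signal.

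Mature T cells recognise peptides through a T cell receptor, a pair of variable chains held at the surface by the CD3 proteins. CD4 marks helper T cells, which see peptides on MHC class II, and CD8, a dimer of the products of Cd8a and Cd8b1, marks cytotoxic T cells, which see peptides on MHC class I. A mature T cell in blood normally carries only 1 of these coreceptors, and most cells carry a single productive beta chain. Resting naive T cells express Lef1, Tcf7, Il7r and Ccr7, while effector cells gain granzymes, chemokines and Cd44.

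Arthritic mice 1, 3, 4, 5 and 6 gave 133, 104, 26, 7 and 99 T class columns, against 2, 79, 0 and 0 in healthy mice 1 to 4. The columns of the class held 6111 to 39606 signal each, with a median of 8448, and 2313 to 7663 genes. Summed over a mouse, the class had between 101429 and 1554756 signal in the arthritic mice, and 14894 and 915970 in healthy mice 1 and 2, so the healthy group rests almost wholly on mouse 2. In healthy mouse 1 a gene needs about 201.4 signal per 1000000 (SPM, before any scaling between mice) to reach 3 signal, and 58.8% of the genes tested below had no signal there. Of the 450 columns, 54 were identical to another column and 40 of these matched a column of another mouse, although no barcode was shared between mice. Sums of different mice thus hold some identical columns. Hemoglobin made up more than 5% of the signal in 8 columns, which lay in arthritic mice 4 and 6, and mitochondrial transcripts had a median share of 12.1%.

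The T class took 13.0%, 10.8%, 3.61%, 1.39% and 12.5% of the blood columns of arthritic mice 1, 3, 4, 5 and 6. The shares in healthy mice 1 to 4 were 6.67%, 39.3%, 0% and 0%. The ranges overlapped, and the highest and the lowest shares were both in healthy mice. The mean was 8.24% ± 5.36 in the arthritic mice and 11.5% ± 18.8 in the healthy mice (SD, n = 5 and 4), a difference of -3.25 percentage points that was smaller than the spread between mice (two-sided exact permutation test over mice, p = 0.825, where the smallest p that 5 against 4 mice allow is 0.0159). Without healthy mouse 2 the difference was 6.02 percentage points (exact permutation p = 0.179). Healthy mice 1, 3 and 4 had only 30, 26 and 45 blood columns in all, so a share of 0 there means 0 of 26 and 0 of 45 columns.

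**Figure D1:**
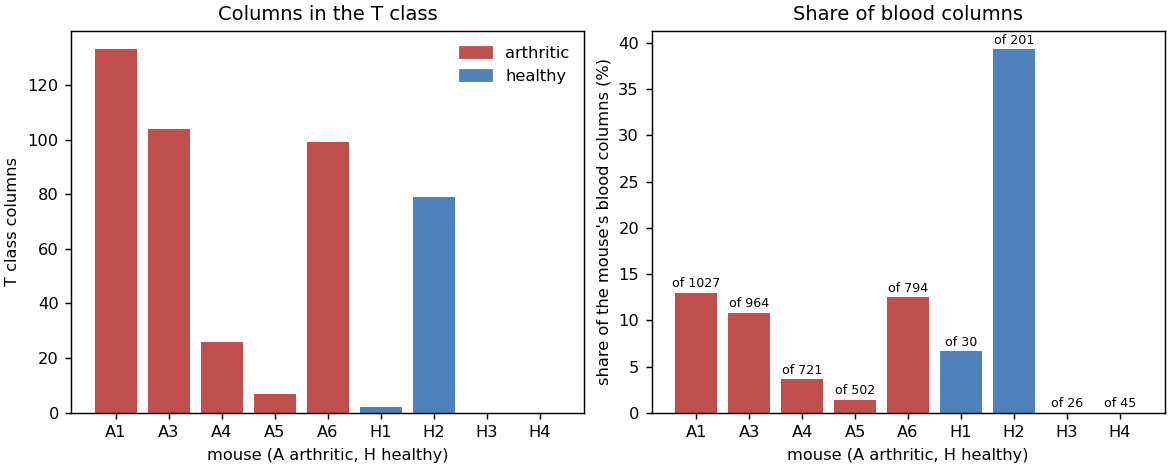
Number of T class columns (left) and their share of all blood columns of the mouse in percent (right), with 1 bar per mouse, arthritic mice in red (A) and healthy mice in blue (H); the number above each right-hand bar is the mouse's total of blood columns. Healthy mouse 2 stands at 39.3% of 201 columns, while arthritic mice lie between 1.39% and 13.0%.

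The genes of the T cell receptor and its signalling were higher in the T class than in any other class. All 20 genes of a list of T cell markers had their highest summed level there, among the 6 classes with at least 50 columns. Trbc2, a constant region of the receptor's beta chain, had 1495 SPM in the T class and 720.3 SPM in the next class, the one named foxP3. Trac, the constant region of the alpha chain, had 661.0 SPM, against 297.3 SPM in the B class. The naming of the classes may have used these genes, so the levels describe the class and were not tested. Cd3e had 259.8 SPM in the T class, against 11.2 SPM in the granulocyte class and 6.29 SPM in the progenitor class.

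Cd3e, Cd3d and Cd3g encode the epsilon, delta and gamma chains of CD3 and lie next to each other on chromosome 9. Cd3e had 330.8, 309.4, 216.8, 227.6 and 271.5 scaled SPM in arthritic mice 1, 3, 4, 5 and 6, against 124.5 SPM (3 signal) in healthy mouse 1 and 280.8 SPM in healthy mouse 2. Levels given per mouse are scaled with trimmed-mean factors, and those given per class are not. Over the class, Cd3d stood at 457.3 SPM and Cd3g at 376.0 SPM, about 1.95 and 2.06 times the next class. The promoter windows of these 3 genes are shown because the genes were high together in the same class. They run from 250 bases before to 50 bases after the start (RefSeq, GRCm38.p6): Cd3e at chr9:45009562-45009861 (minus strand), Cd3d at chr9:44981536-44981835 (plus strand) and Cd3g at chr9:44980382-44980681 (minus strand). Capitals mark AGGAAG, a core of ETS factor motifs, and CTTTGA, a core of TCF/LEF motifs, on either strand.
Cd3e: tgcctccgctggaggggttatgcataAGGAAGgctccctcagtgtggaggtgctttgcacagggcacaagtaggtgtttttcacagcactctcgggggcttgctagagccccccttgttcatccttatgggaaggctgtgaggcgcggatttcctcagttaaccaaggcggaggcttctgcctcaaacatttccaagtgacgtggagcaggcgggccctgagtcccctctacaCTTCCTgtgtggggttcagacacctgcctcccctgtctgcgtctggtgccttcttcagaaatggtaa
Cd3d: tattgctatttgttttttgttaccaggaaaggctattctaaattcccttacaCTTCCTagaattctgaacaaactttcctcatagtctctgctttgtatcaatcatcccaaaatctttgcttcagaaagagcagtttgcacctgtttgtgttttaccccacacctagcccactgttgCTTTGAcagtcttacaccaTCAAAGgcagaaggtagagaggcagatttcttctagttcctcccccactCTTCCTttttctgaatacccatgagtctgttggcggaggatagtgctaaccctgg
Cd3g: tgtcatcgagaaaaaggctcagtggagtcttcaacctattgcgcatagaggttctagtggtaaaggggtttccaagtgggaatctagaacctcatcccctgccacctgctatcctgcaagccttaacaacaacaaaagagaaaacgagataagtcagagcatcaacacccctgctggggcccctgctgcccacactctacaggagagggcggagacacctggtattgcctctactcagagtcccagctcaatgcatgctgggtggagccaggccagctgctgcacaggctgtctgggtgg
AGGAAG or its reverse complement occurred 2 times each in the Cd3e and Cd3d windows, and CTTTGA occurred 2 times in the Cd3d window. These letters were not in the Cd3g window, and the RUNX core TGTGGT was in none of the 3. Among 27025 promoter windows of the same length, 35.1% held AGGAAG, 16.2% held CTTTGA and 16.9% held TGTGGT, so the matches are a description of the letters only.

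Of 20 genes of proximal receptor signalling, 17 were highest in the T class. Lck, the kinase that phosphorylates CD3, had 422.5 SPM in the T class and 195.0 SPM in the foxP3 class. Themis, a regulator of receptor signalling needed for thymic selection, had 89.4 SPM in the T class and 29.5 SPM in the B class, and it was detected in 220 of 450 columns. Plcg1, a phospholipase of receptor signalling, had 59.4 SPM in the T class and 22.3 SPM in the B class.

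Most naive T cell genes had their highest level in the class, and most effector genes did not. Of 20 genes for naive homing and quiescence, 18 had their highest level there. Lef1, a transcription factor of naive T cells, had signal in 426 of 450 columns and 325.3 SPM in the T class, against 143.2 SPM in the foxP3 class. Tcf7, its relative, had 529.2 SPM in the T class and 230.3 SPM in the foxP3 class, and Ccr7, the lymph node homing receptor, had 296.8 SPM in the T class and 139.4 SPM in the B class. Of 24 effector and memory genes, 3 were highest in the T class. They were Ctsw, Fasl and Prf1, at 2.53, 1.50 and 1.43 times the next class. Cd44, a marker of antigen-experienced cells, had 65.5 SPM, 0.225 times the highest other class, the dendritic one. Zeb2 and Cx3cr1 were also highest in the dendritic class, and Ccl5 and Gzma in the foxP3 class. These counts thus depend on what the other classes express and do not place the class as naive or effector. None of 20 proliferation genes was highest in the T class. Of 29 genes of the type I interferon response, 1 was highest there.

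The 20 genes with the largest ratio to the highest other class, among those with at least 50 SPM, were led by small RNAs of the nucleolus. Gm24451, annotated as a small nucleolar RNA, had 85.5 SPM in the T class and 19.7 SPM in the B class, a ratio of 4.35. AF357399, another small nucleolar RNA gene (chr7:28351508-28351632, GENCODE M21, GRCm38), had 440.7 SPM in the T class and 108.5 SPM in the B class, a ratio of 4.06. Arhgap5, which encodes a GTPase activating protein, followed with a ratio of 3.27, then Themis at 3.03, Spopl at 2.99, Dnah8 at 2.99, Ppm1h at 2.97 and Cd3e at 2.94. Pde3b, Utrn, Snord15a, Mir6236, Cd27, Cd8a, Nsg2, 4932438A13Rik, Plcg1, Il6st and Kif21b were also among the 20, with ratios of 2.60 to 2.88. Of these 20 genes, 19 were higher in the T class than in the rest of the same mouse's columns in 6 of 6 mice compared, and Gm24451 in 5 of 6. The same columns chose the genes, so this count is a description and no separate support.

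**Figure D2:**
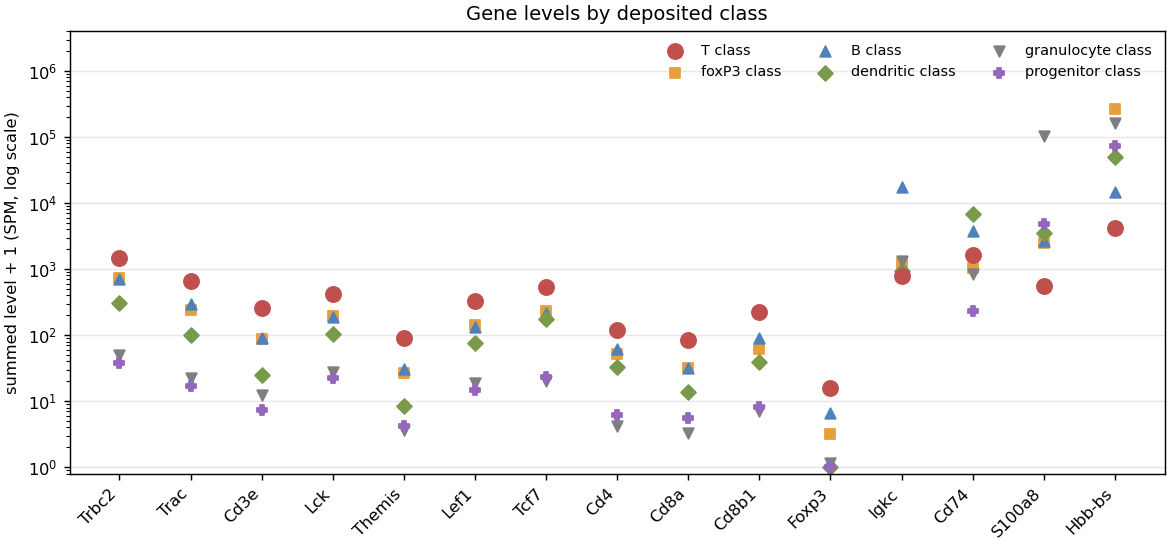
Summed level of 15 genes plus 1 (SPM, log axis) in the T class (large red circles) and the 5 other classes with at least 50 columns, each point 1 class over all mice. The T class is the highest class for the 11 genes from Trbc2 to Foxp3, and lies below the B class for Igkc and below all other classes for S100a8 and Hbb-bs.

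Transcripts of other blood lineages were present in nearly every T class column. Igkc, an immunoglobulin light chain constant region of B cells, had signal in 440 of 450 columns and a summed level of 777.6 SPM, against 17563 SPM in the B class. S100a8, a granule protein of neutrophils, was detected in 429 columns at 550.1 SPM, against 101933 SPM in the granulocyte class. Each of the 15 neutrophil markers and each of the 15 B cell markers had some signal in the class, and the summed neutrophil list was 902.6 SPM in the T class and 183523 SPM in the granulocyte class. Platelet markers summed to 3.52 SPM, with 5 of 9 at 0. The reverse held too, since Cd3e had signal in 28.0% of the columns outside the class. A share of columns with signal is therefore no measure of which cells express a gene here, and the part that free RNA or joined columns play in it was not tested.

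Variable segments of the receptor gave another view of the content of a column. The table held 23 Trbv genes, the variable segments of the beta chain, and 21 of them had signal in the T class, 1580 in all. Trbv19 carried 186, Trbv12-2 carried 175 and Trbv3 and Trbv13-3 carried 129 each. At least 2 different Trbv genes had signal in 338 of 450 columns (75.1%), the median was 3 and the maximum 10. In arthritic mice 1, 3, 4, 5 and 6 that share was 79.7%, 72.1%, 61.5%, 85.7% and 75.8%, and in healthy mouse 2 it was 73.4%. It was 36.0% in the foxP3 class and 25.5% in the B class. Both constant regions, Trbc1 and Trbc2, had signal in 447 of 450 columns. Of 55 Trav genes of the alpha chain, 51 had signal, led by Trav14d-3-dv8 with 163 and Trav3-3 with 142. The gamma and delta chain segments were rare, with 21 signal for 1 Trgv gene and 27 for 5 Trdv genes. These segment groups were chosen after their values had been seen.

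The class held more summed Cd8a and Cd8b1 signal than Cd4 signal. Cd4 itself was also highest in this class, at 119.2 SPM, against 61.1 SPM in the B class. Cd4 (chr6:124864692-124888221, minus strand) had 644 signal in the class, Cd8a (chr6:71373427-71379173) had 454 and Cd8b1 (chr6:71322788-71337494) had 1225 (coordinates from GENCODE M21, GRCm38). Signal counts transcript ends and was not divided by gene length. Cd4 had signal in 306 columns, Cd8a in 245 and Cd8b1 in 383. Columns with both a Cd4 and a Cd8 gene were the most frequent kind, at 285 of 450 (63.3%), while 21 had only Cd4, 135 had only a Cd8 gene and 9 had neither.

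Cd4 had 108.1, 158.5, 124.5, 105.7 and 141.9 scaled SPM in arthritic mice 1, 3, 4, 5 and 6, against 0 and 152.7 SPM in healthy mice 1 and 2. Cd8b1 had 265.5, 240.8, 221.4, 162.6 and 257.3 SPM in the same arthritic mice, against 83.0 SPM (2 signal) and 301.5 SPM in the healthy mice. Cd8b1 was above Cd4 in all 7 mice with T class columns. The Cd4 part of the summed Cd4, Cd8a and Cd8b1 signal was 23.6%, 30.7%, 31.4%, 29.5% and 29.2% in the arthritic mice and 27.1% in healthy mouse 2, so the arthritic mice lay on both sides of it. Over all mice the part was 27.7% in the T class, 36.0% in the foxP3 class and 33.7% in the B class. It was 27.9% in the granulocyte class, 30.4% in the progenitor class and 38.8% in the dendritic class. A Cd4 part this low was therefore not particular to the T class. Of 17 CD4 lineage genes in the table, 13 were highest in the T class, among them Cd28, Icos and Cd40lg, and so were 4 of 22 CD8 lineage genes. Across the 450 columns the rank correlation (Spearman) of Cd4 with Cd8a was 0.0161, of Cd4 with Cd8b1 0.00593, and of Cd8a with Cd8b1 0.0334. The genes most like Cd4 by this measure were Cstf2t, Ramp1, Zfc3h1, Rps23 and Hist4h4, at 0.229 to 0.262, and those most like Cd8a were Gm10138, Dpp7, Gm8182, Gm25360 and Mettl1, at 0.299 to 0.329, all over 450 columns that share mice, depth and content.

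By the leaning of a column, meaning whether its Cd4 signal was above or below its Cd8a plus Cd8b1 signal, 55 columns were Cd4-leaning, 337 were Cd8-leaning and 58 were tied. Cd4-leaning columns made up 9.77%, 18.3%, 15.4%, 14.3% and 13.1% of the class in arthritic mice 1, 3, 4, 5 and 6, and 6.33% in healthy mouse 2. Each arthritic mouse was above healthy mouse 2, by 7.84 percentage points on average, and this difference, which rests on 1 healthy mouse with at least 5 columns, was not tested. With every column thinned to 6052 signal the order did not hold, since arthritic mice then had 12.8%, 22.1%, 15.4%, 0% and 13.1%, against 15.2% in healthy mouse 2. With a lead of at least 3 signal, 3, 2, 0, 0 and 3 columns remained Cd4-leaning in the arthritic mice and 0 in healthy mouse 2.

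**Figure D3:**
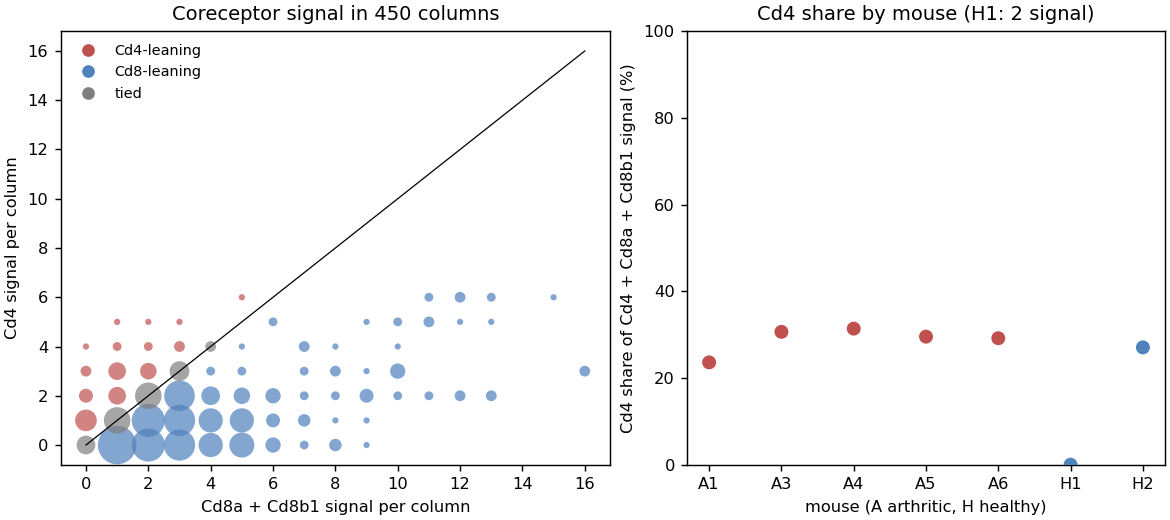
Left, Cd4 signal against Cd8a plus Cd8b1 signal per column, with the area of a circle in proportion to the number of columns at that point and the line marking equality; Cd4-leaning columns are red, Cd8-leaning blue and tied grey. Right, the Cd4 part of the 3 genes' summed signal per mouse (percent), which lies between 23.6% and 31.4% except in healthy mouse 1, where only 2 signal were present.

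Foxp3, the master transcription factor of regulatory T cells, had 81 signal in 72 of 450 columns. It was present in 29, 18, 2, 0 and 15 columns of arthritic mice 1, 3, 4, 5 and 6, and in 0 and 8 columns of healthy mice 1 and 2. Its level was 14.998 SPM in the T class, against 2.21 SPM in the class named foxP3, whose deposited name also ends in a hyphen. The 72 columns were deeper than the other 378, with a median of 18971.5 signal against 7734.5. Of 8 other regulatory T cell genes, Ikzf2, Ctla4, Tnfrsf18 and Gpr83 had a higher summed level in columns with Foxp3, and Il2ra, Tnfrsf4, Izumo1r and Capg a lower one. Ctla4, an inhibitory receptor, had 52.6 SPM in columns with Foxp3 and 46.3 SPM in the others, while Il2ra, the high-affinity IL-2 receptor chain, had 11.6 SPM in columns with Foxp3 and 31.4 SPM in the others. Cd4 itself had 85.8 SPM with Foxp3 and 129.8 SPM without it.

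The genes most like Foxp3 across columns were 1700016G22Rik, Scrt2, C030037D09Rik, Pdzd9 and Gm8285, with rank correlations of 0.741 to 0.742. Scrt2 encodes a neuronal transcription factor. Scrt2, C030037D09Rik, Pdzd9 and Gm8285 all had signal in the same 46 columns, and each of these columns had Foxp3. They lay in 4 mice, with 20, 9 and 11 in arthritic mice 1, 3 and 6 and 6 in healthy mouse 2, and 43 of the 46 were distinct. Together they shared 1952 genes and at least 7444 signal, taking the lowest value of each gene, where the shallowest held 12173. The 46 deepest other columns of the class shared 1137 genes and 6101 signal, with at least 20960 signal each. These 46 columns took 25.9%, 14.3% and 18.9% of the class signal of arthritic mice 1, 3 and 6 and 14.0% of that of healthy mouse 2. They were singled out after their values had been seen, so no test was run on them, and 40 of them were Cd8-leaning.

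Cd4-leaning and Cd8-leaning columns were next compared as sums within each mouse, in the 5 mice with at least 3 columns of each kind (arthritic mice 1, 3, 4 and 6 and healthy mouse 2). Snord49b, a small nucleolar RNA, was lower in the Cd4-leaning sums of every mouse. In Cd4-leaning sums it had 1012, 453.8, 323.2 and 600.1 SPM in arthritic mice 1, 3, 4 and 6 and 1248 SPM in healthy mouse 2, against 1686, 909.4, 1515, 1733 and 3356 SPM in the Cd8-leaning sums of the same mice. Its log2 difference was -1.38 ± 0.20 (SE; limma with mouse as a block, Benjamini-Hochberg adjusted p = 0.0349). Of 8682 genes tested, 13 passed an adjusted p of 0.05 (0.15%), all lower in Cd4-leaning sums, and 1953 (22.5%) had an unadjusted p under 0.05. The other 12 had no signal in any Cd4-leaning sum. These 12 passed the filter on low values only through the deeper Cd8-leaning sums, so they had to differ and their calls support nothing. Gpr83, a receptor gene found in regulatory T cells, was among them, with 71 signal in Cd8-leaning sums and 0 in Cd4-leaning sums. Besides 4 unnamed gene models they were Gpr83, Ccdc92, Exd1, Tmem203, Afap1l1, Tsc2, Zfp988 and Zfp658.

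Depth differed between the kinds. Cd4-leaning sums held 98424, 167558, 30258, 121697 and 50193 signal in arthritic mice 1, 3, 4 and 6 and healthy mouse 2, against 1356134, 1015219, 180946, 988487 and 717448 signal in Cd8-leaning sums. Over all genes the median log2 difference was -0.85, and 11.2% of the genes were above 0. With both sums of a mouse thinned to the same total, a setting chosen after seeing the data, the median was -0.06, 46.7% of the genes were above 0, and no gene passed (limma; 481 of 8367, or 5.75%, with unadjusted p under 0.05). Snord49b then had a log2 difference of -0.94 (limma adjusted p = 0.712). It also missed the threshold with median-of-ratios scaling (-1.02, adjusted p = 0.240) and without the mouse block (adjusted p = 0.133, limma). Over all settings run its log2 difference was -1.79 to -0.32, the smallest with columns that hold only Cd4 or only Cd8 signal. The number of calls was 77 without arthritic mouse 3 and 0 without any other mouse, and it was also 0 without the 46 columns that share Scrt2 and Pdzd9.

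The sequence of Snord49b (chr11:62603079-62603150, plus strand, GENCODE M21, GRCm38) is shown as the called gene with signal in both kinds, and that of Snord15a (chr7:99482785-99482932, minus strand) as a leading gene of the class. Mature miR-6236 (chr9:110281353-110281371, plus strand, RefSeq, GRCm38.p6) belongs to Mir6236, described below. Capitals mark TGATGA, the core of the C box, and CTGA, the D box, which define this family of small nucleolar RNAs, searched on the transcript strand. In the microRNA they mark the seed, bases 2 to 8.
Snord49b: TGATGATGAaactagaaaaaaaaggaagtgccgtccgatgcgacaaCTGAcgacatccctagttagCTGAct
Snord15a: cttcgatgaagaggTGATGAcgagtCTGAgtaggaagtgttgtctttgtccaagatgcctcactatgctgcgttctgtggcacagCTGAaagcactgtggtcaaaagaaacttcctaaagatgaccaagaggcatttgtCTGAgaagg
miR-6236: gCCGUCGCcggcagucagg
Box C/D small nucleolar RNAs guide methylation of ribosomal and other RNAs, and they are processed from introns of host genes.

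No gene was higher in Cd4-leaning sums past the threshold. The 5 with the smallest p were Upf3b, a factor of nonsense-mediated decay, Sharpin, part of the linear ubiquitin ligase, Ift27, Adprm and Syt11. Upf3b had 182.4, 96.4, 115.4 and 90.4 SPM in Cd4-leaning sums of arthritic mice 1, 3, 4 and 6 and 121.4 SPM in healthy mouse 2, against 87.9, 55.9, 55.2, 58.0 and 66.6 SPM in Cd8-leaning sums. Its log2 difference was 0.87 ± 0.28 (SE, limma adjusted p = 0.166), and it was higher in 5 of 5 mice. For Sharpin, Ift27, Adprm and Syt11 the log2 difference was 1.73, 2.67, 1.46 and 1.49, with adjusted p of 0.180 to 0.198 (limma), but Sharpin and Syt11 turned to -0.88 and -1.06 with a lead of at least 3 signal. Cd3e had a log2 difference of -0.93 ± 0.20 (adjusted p = 0.134), Lef1 of -0.85 ± 0.26 (adjusted p = 0.155) and Themis of -0.62 ± 0.43 (adjusted p = 0.354, limma). These lay near the shift of all genes, and with equal totals they were 0.060, -0.56 and -0.21.

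Lists of lineage genes held 1 called gene. None of the 15 tested CD4 lineage genes passed, 2 had a difference above 0, and their median was -0.91, where the median of all genes was -0.85. For 14 tested CD8 lineage genes none passed and the median was -0.44. With equal totals, 9 of 15 CD4 lineage genes and 9 of 15 CD8 lineage genes were above 0, with medians of 0.14 and 0.38, where the median of all genes was -0.06. Of 9 tested regulatory T cell genes 1 passed, where 0.15% of all genes did, and it was Gpr83, which entered the test only through the Cd8-leaning sums; with equal totals none of 9 passed. None passed among 8 genes of the receptor complex, 20 naive genes, 15 effector genes and 7 helper subset genes, in either setting. Markers of other cells were also compared between the leanings. Monocyte and dendritic cell markers summed to 3594, 4034, 2816 and 3691 SPM in Cd4-leaning sums of arthritic mice 1, 3, 4 and 6 and 1925 SPM in healthy mouse 2, against 4048, 4356, 3324, 3923 and 3719 SPM in Cd8-leaning sums, so they were lower in Cd4-leaning sums in 5 of 5 mice. NK cell and neutrophil markers were each lower in 4 of 5 mice and B cell markers in 3 of 5. With equal totals the median log2 difference was 0.078 for monocyte and dendritic cell markers and 0.50 for neutrophil markers. It was -0.23 for NK cell markers and -0.05 for B cell markers, where that of all genes was -0.06. The part of these markers in the differences between leanings was not tested. Hemoglobin was 10.4% and 9.66% in the Cd4-leaning and Cd8-leaning sums of arthritic mouse 4, and at most 0.168% and 0.526% elsewhere.

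**Figure D4:**
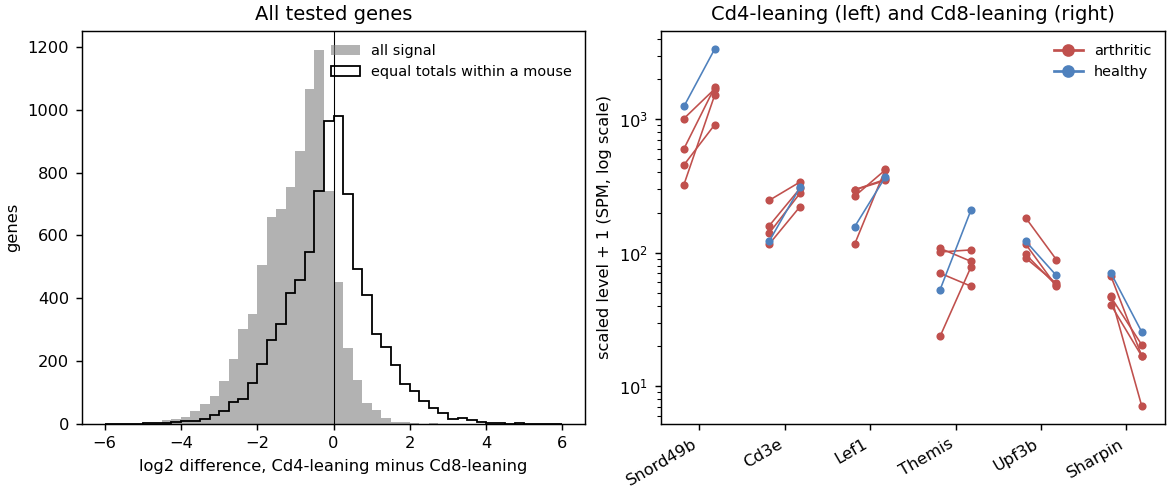
Left, log2 difference of all tested genes, Cd4-leaning minus Cd8-leaning, with all signal (grey; median -0.85) and with equal totals within a mouse (black line; median -0.06). Right, scaled level plus 1 (SPM, log axis) of 6 genes in Cd4-leaning (left end of each line) and Cd8-leaning sums (right end), with 1 line per mouse; Snord49b is lower and Upf3b and Sharpin are higher in Cd4-leaning sums in 5 of 5 mice.

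The class was then compared between arthritic and healthy mice, the contrast the study's groups are made for. In 10168 genes tested with limma over the 5 arthritic and 2 healthy mice with T class columns, none passed an adjusted p of 0.05 (0.0%), and 1820 (17.9%) had an unadjusted p under 0.05. Of these 1820, 1418 had no signal in healthy mouse 1, whose 2 columns also set the median log2 difference of 1.25. Without that mouse the median was -0.21, no gene passed and 499 of 9760 (5.11%) had an unadjusted p under 0.05. Healthy mouse 2 then stands alone and is assumed to vary like the others. Without healthy mouse 2, the 2 columns of healthy mouse 1 were the whole healthy group, and 5984 of 9876 genes (60.6%) passed. A lower level in a sum can come from fewer cells of a kind or from less RNA per cell, which cannot be told apart.

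The genes with the smallest p included some with signal in every mouse that had T class columns. Vps36, part of the ESCRT sorting machinery, had 163.2, 164.5, 124.5, 195.1 and 139.0 SPM in arthritic mice 1, 3, 4, 5 and 6, against 41.5 SPM (1 signal) and 82.8 SPM in healthy mice 1 and 2. Cox8a, a subunit of cytochrome c oxidase, had 338.8, 396.7, 262.9, 365.9 and 297.0 SPM, against 83.0 SPM (2 signal) and 207.0 SPM. Gars, the glycyl-tRNA synthetase, had 50.0, 63.6, 50.7, 56.9 and 60.5 SPM, against 166.0 SPM (4 signal) and 98.3 SPM. In all 3 genes the groups did not overlap, but the genes were picked for their small p. Against healthy mouse 2 alone, 17.6% of all tested genes were higher in each arthritic mouse and 22.6% were lower. The values of healthy mouse 1 rest on 1, 2 and 4 signal, so that mouse places these genes only roughly. Log2 differences were 1.39 ± 0.36 for Vps36, 1.32 ± 0.36 for Cox8a and -1.17 ± 0.38 for Gars (SE; limma adjusted p = 0.273 for each). With sums thinned to the smallest total, a setting chosen after seeing the data, Vps36 turned to -0.59, while Cox8a was at 0.49 and Gars at -4.40. Nisch had -1.44 ± 0.48 at the same adjusted p. The others the naming rule picks, Elmod2, Cpne2 and Med16 with higher and Xylb, Mtx3 and Nebl with lower fitted values, had means of 7.04 to 16.7 SPM. Elmod2, Cpne2 and Med16 had no signal in either healthy mouse. Xylb, Mtx3 and Nebl had 1 or 2 signal in healthy mouse 1.

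Of the 20 T cell markers, 3 (Cd3g, Cd247 and Lat) were higher and 5 (Cd8b1, Themis, Tcf7, Bcl11b and Il7r) were lower in each arthritic mouse than in healthy mouse 2. These counts lie near the shares of all tested genes, 17.6% higher and 22.6% lower. Trbc2 averaged 1627 ± 194 SPM in the arthritic mice (SD, n = 5) and was 1575 SPM in healthy mouse 2. Lef1 averaged 364.2 ± 55.1 SPM and was 335.1 SPM in healthy mouse 2, and Tcf7 averaged 578.8 ± 44.4 SPM, below the 615.9 SPM there in each arthritic mouse. Cd8a averaged 85.8 ± 23.8 SPM, against 110.0 SPM, and Foxp3 averaged 13.4 ± 9.27 SPM, against 10.35 SPM. Themis had 100.8, 77.1, 60.0, 48.8 and 90.8 SPM in arthritic mice 1, 3, 4, 5 and 6, all below the 178.6 SPM of healthy mouse 2, while healthy mouse 1 had no signal. Fitted with both healthy mice, the log2 differences of Cd3e, Lef1, Cd8b1 and Foxp3 were 0.51 ± 0.35, 0.61 ± 0.32, 0.51 ± 0.46 and 1.51 ± 1.54 (SE), with adjusted p of 0.283 to 0.524 (limma). Those of Cd4, Cd8a and Themis, each at 0 in healthy mouse 1, were positive and did not pass either. All 7 were below 0 without that mouse.

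Over all tested genes, 17.6% were higher in each of the 5 arthritic mice than in healthy mouse 2, and 22.6% were lower in each. Against this background, 7 of 20 naive genes, among them Il7r, Klf2, Tcf7, Btg1, Btg2 and Ms4a6b, were lower in each arthritic mouse and none was higher. Among 17 effector genes, 6 (Il2rb, Gzma, Gzmm, Nkg7, Ctsw and Xcl1) were higher in each and 2 (Itgae and S100a4) were lower. For 20 genes of proximal receptor signalling the counts were 2 higher (Lat and Sh2d1a) and 8 lower, among them Zap70, Fyn and Prkcq. Of 19 early activation genes 3 were higher and 6 lower (Cd69, Nr4a1, Egr1, Myc, Dusp2 and Jund). In the type I interferon list 6 of 21 were higher and 3 lower. Each count compares arthritic mice with 1 healthy mouse, was made after values had been seen, and none of these genes passed the test over all genes.

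Cd69, the early activation antigen, had 251.7, 252.6, 202.9, 203.3 and 256.3 SPM in arthritic mice 1, 3, 4, 5 and 6, against 363.6 SPM in healthy mouse 2 and 124.5 SPM (3 signal) in healthy mouse 1. Nkg7, a granule protein of cytotoxic cells, had 135.6, 117.0, 143.0, 130.1 and 128.6 SPM, against 106.1 SPM in healthy mouse 2 and 41.5 SPM (1 signal) in healthy mouse 1. Gzma, which encodes granzyme A, had 23.2, 27.1, 50.7, 40.6 and 59.6 SPM, against 18.1 SPM in healthy mouse 2 and 0 in healthy mouse 1. Cd69 in arthritic mice lay between the 2 healthy mice, while Nkg7 and Gzma were higher in every arthritic mouse than in healthy mouse 2. In healthy mouse 1, 3 signal are 124.5 scaled SPM. Gzma lay below that level and Nkg7 near it in every arthritic mouse, so healthy mouse 1 cannot place them. Of 10 tested markers of NK cells, a lineage that shares Nkg7 and Gzma, 5 were higher in each arthritic mouse than in healthy mouse 2. Another 2 (Klre1 and Klrk1) were lower in each, where 17.6% of all genes were higher and 22.6% lower. The summed level of the NK cell markers was 344.2 to 512.0 SPM in the arthritic mice and 339.0 SPM in healthy mouse 2. Their part in the effector values was not tested.

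Ribosomal and nucleolar RNA loci had the lowest median difference from healthy mouse 2 among the lists. Gm42418, a locus on chromosome 17 that collects reads of ribosomal RNA, had 48379, 43841, 25478, 12772 and 53769 SPM in arthritic mice 1, 3, 4, 5 and 6, against 77810 and 92542 SPM in healthy mice 1 and 2. Both healthy mice lay above every arthritic mouse. Its log2 difference was -1.38 ± 0.66 (SE, limma adjusted p = 0.273). Mir6236 had 6548, 5654, 3201, 1236 and 7126 SPM, against 4399 and 16380 SPM, so healthy mouse 1 lay within the arthritic range. AF357399 had 486.7, 213.6, 364.4, 32.5 and 536.3 SPM, against 1044 SPM in healthy mouse 2 and no signal in healthy mouse 1. Of 8 tested genes of this list, 6 were lower in each arthritic mouse than in healthy mouse 2 and none was higher. Over all tested genes, 22.6% were lower in each and 17.6% higher. Without healthy mouse 1 the list's median log2 difference was -1.70, where that of all genes was -0.21. For the T class minus the other columns of the same mouse, also without healthy mouse 1, it was -0.086, where that of all genes was -0.13. By this median the list did not differ more in the class than in the other columns. Those other columns are a mix of classes that differs between mice. In the same fit the 7 tested neutrophil markers had a median of -3.44, and the part of this mix was not tested. Within the class, Gm42418 took between 0.570% and 32.4% of the signal of a column. It passed 10% in 9, 12, 0, 0 and 9 columns of arthritic mice 1, 3, 4, 5 and 6, and in 1 of 2 and 23 of 79 columns of healthy mice 1 and 2. The median mitochondrial share of a column was 6.95% to 12.3% in arthritic mice, and 12.5% and 14.5% in healthy mice 1 and 2. Its part in these values was not tested.

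**Figure D5:**
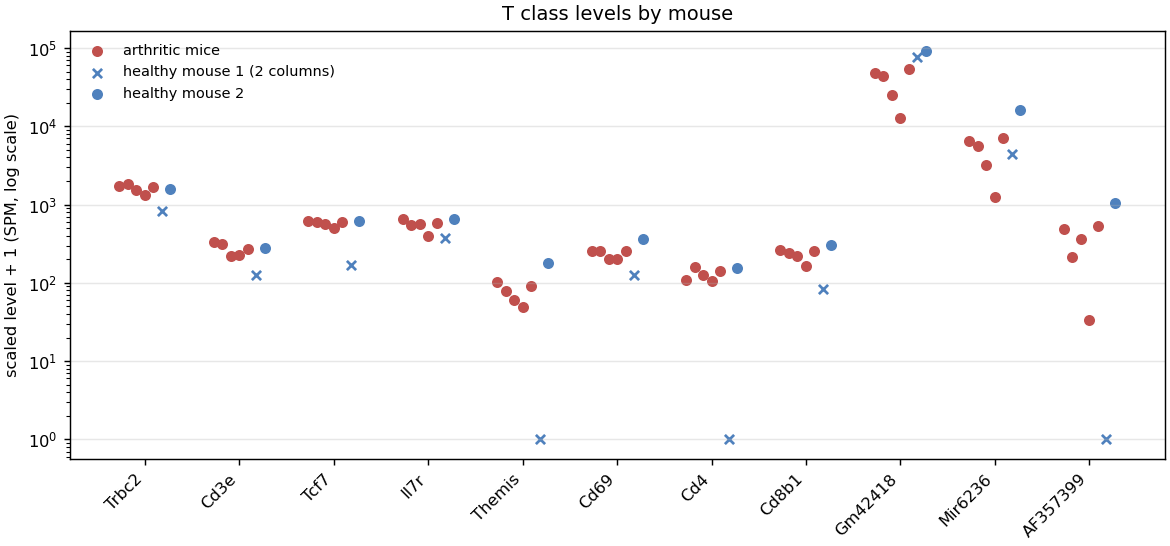
Scaled level plus 1 (SPM, log axis) of 11 genes in the T class, with 1 point per mouse, arthritic mice 1, 3, 4, 5 and 6 as red circles from left to right, healthy mouse 1 as a blue cross and healthy mouse 2 as a blue circle. Trbc2, Cd3e and Cd4 of healthy mouse 2 lie within the arthritic range, and Gm42418, Mir6236 and AF357399 lie above it; points at 1 had no signal.

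Whether a difference between arthritic and healthy mice was larger in the T class than in the other columns of the same mouse was tested on the log2 difference between class and rest. Of 9489 genes none passed (0.0%; limma; 1466, or 15.4%, with unadjusted p under 0.05), and the same was found without healthy mouse 1 (451 of 9364, or 4.82%, with unadjusted p under 0.05). Without healthy mouse 2, 4751 of 9233 (51.5%) passed, again against the 2 columns of healthy mouse 1. Among the smallest p, Prdx5, an antioxidant enzyme, lay at -3.32, -2.85, -2.90, -4.12 and -1.74 (log2, T class minus rest) in arthritic mice 1, 3, 4, 5 and 6, against -0.57 and 0.84 in healthy mice 1 and 2. The groups did not overlap in this gene, which was picked for its small p. The difference between the groups was -3.12 ± 0.76 (SE, limma adjusted p = 0.315). Ngp, a neutrophil granule gene, lay at -9.22 to -5.93 in the arthritic mice and at -4.29 and -4.50 in the healthy mice, a difference of -3.53 ± 0.87 (adjusted p = 0.315, limma). The 7 tested neutrophil markers had a median difference of -3.51, where that of all genes was 0.97. The rest is a mix of classes that differs between mice, and its part in these differences was not tested. The other genes named by the rule were Efcab9, Zfp827, Tnfrsf10b, Dnajc27 and Galnt9 with higher values, at 2.88 to 3.73, and Stk39, Flot1 and Phkb with lower values, at -2.998 to -2.763, all at the same adjusted p.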

How the data were processed

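Seq-Well libraries of blood from 9 mice were processed by the submitters after the core computational protocol of Drop-seq, per the labels' protocols, with a genome made from GRCm38.p5. How cells were kept and classes named is not given in the sources used here. Values in the deposited table are whole-number signal, per gene and barcode column (23499 genes, 4310 columns), not scaled to a common total. Columns overlap in content, so the values were treated as signal and not as counts of single cells: no count model and no counting interval were used, and no doublet caller was run. Columns were assigned to mice and classes by the deposited column names. A second table, of joints, with 8423 columns, was not used.

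The signal of the T class was summed per mouse, and per mouse and leaning, scaled with trimmed-mean factors (trims of 30% and 5%) and expressed per 1000000 (SPM). Genes with at least 10 SPM in as many sums as the smaller group holds (at least 2) were fitted as log2(SPM + 1) with limma 3.58.1 (trend, except for class minus rest; R 4.3.3) and Benjamini-Hochberg adjustment at 0.05. Fitted fold changes of low genes depend on the pseudocount. Cd4, Cd8a and Cd8b1 were left out of the test between leanings. For shares, an exact permutation test (two-sided) was used. The mouse is the replicate, and mouse numbers were given separately in each group, so they pair no mice between groups; between leanings, both sums come from the same mouse and the mouse is a block.

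Members, lists and tests were chosen with earlier results of these data known. The rule for named genes takes up to 12 called genes per direction with the largest change, without unnamed gene models and with 20 SPM or more on average, or else the 5 with the smallest p. For a class it takes the 20 genes with the largest ratio to the highest other class of at least 50 columns, and it adds list members and the marker genes. Other genes named here were chosen after their values were seen. Some genes that the rule picks are not reported here. The 28 lists also include costimulation, transcription factor, cytokine, chemokine, TNF, glucocorticoid, survival, plasma cell, monocyte and erythroid genes. In each of the lists other than the regulatory T cell list, no member passed a test in either main comparison. The fits were also run on simulated independent sums, which hold no columns shared between mice, and the outcome is not reported here. Python 3.11.15 with numpy 2.4.6, pandas 2.3.3, scipy 1.17.1 and matplotlib 3.10.9 did the remaining work. Promoter and microRNA sequences are from RefSeq (GRCm38.p6), and other sequences and coordinates from GENCODE M21 (GRCm38).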

Additional observations from a re-analysis of the deposited data

Results flagged for a closer look

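The T class share of blood columns was 39.3% in healthy mouse 2, far from the next healthy mouse at 6.67% (n = 4). Hemoglobin took 8.75% of the class signal of arthritic mouse 4, far from the next arthritic mouse at 0.711%, and the summed erythroid markers of that mouse were 92527 SPM, against 7863 SPM in the next. Arthritic mouse 5, with 7 columns, stood below the other arthritic mice in the summed level of 4 lists. Its CD8 lineage genes summed to 910.6 SPM, with the next mouse at 1246 SPM. T cell chemokine receptor and adhesion genes summed to 1854 SPM there, with the next at 2523 SPM. The type I interferon list summed to 1293 SPM, with the next at 1740 SPM, and T cell survival genes to 495.9 SPM, with the next at 733.4 SPM. These 7 come from 32 groups of mice examined, of which chance would pick about 1 in 20.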

How the results depend on the processing

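The share difference between arthritic and healthy mice was -7.08 to 6.02 percentage points when each mouse was left out, and above 0 only without healthy mouse 2 (6.02). With the replicate block on mouse numbers 1, 3 and 4, which pair no mice, it was 6.89 (exact permutation p = 0.25, the smallest that 3 pairs allow). The Cd4-leaning share, 7.84 points higher in arthritic mice, was 1.44 with a lead of 3 signal and -2.51 with thinned columns. No paired analysis was possible in either fit between arthritic and healthy mice, because mouse numbers pair no mice between groups. Arthritic and healthy mice with T class columns also share only mouse number 1. Calls between arthritic and healthy mice numbered 0 to 5984 when a mouse was left out (0 except without healthy mouse 2), 130 with sums thinned to the smallest total (30 higher, 100 lower, of 7137) and 0 in every other setting run. For class minus rest they were 0 to 4751 with a mouse left out and 0 otherwise. Calls between leanings were 13, and 0 to 77 with a mouse left out. They were 12 with either other scaling, 8 with no filter on low genes, 0 at 30 SPM, 33 with a pseudocount of 5, 417 with array weights (1 higher), 18 without the mouse block, 2216 with a lead of 3 signal (2 mice), 239 with columns holding only Cd4 or only Cd8 signal, and 0 each in arthritic mice only, with thinned columns, with equal totals, without columns rich in other lineages and without the 46 columns that share Scrt2. The causes were not tested, beyond the smaller sums or groups that these settings leave.

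With a mouse left out, log2 differences between arthritic and healthy mice were -0.18 to 1.11 for Cd3e, -1.39 to 6.25 for Themis, -0.0037 to 1.13 for Lef1, -0.38 to 7.03 for Cd4, -0.51 to 6.43 for Cd8a, -0.52 to 1.45 for Cd8b1 and -0.34 to 3.28 for Foxp3. Each lowest value, the only one below 0, was without healthy mouse 1 and each highest without healthy mouse 2. With sums thinned to the smallest total, values below 0 where the fit above was positive were Vps36 (-0.59), Themis (-1.42), Cd8b1 (-0.66) and Foxp3 (-1.66). Between leanings the sign changed for Sharpin (-0.88) and Syt11 (-1.06) with a lead of 3 signal, Syt11 (-0.18) with columns holding only 1 coreceptor, and Cd3e (0.060) with equal totals. The settings added after seeing the data are the thinned sums and the removal of columns rich in other lineages or sharing Scrt2.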
